A study of Mus musculus with 2 samples.

Results

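The retinoid genes described here are 9 members of retinoic acid signaling, the receptor genes *Rara*, *Rarb* and *Rarg*, the binding protein genes *Crabp1* and *Crabp2*, the synthesis genes *Aldh1a1*, *Aldh1a2* and *Aldh1a3*, and the degradation gene *Cyp26b1*. They were taken as every probe set annotated to one of these genes alone, which gave 12 of the 34945 probe sets named with 1 gene, and 9 of 18193 named genes. A probe set is a group of short oligonucleotides that reads the 3′ part of a transcript. No probe set named a member together with another gene, and 7 of the 9 members had 1 probe set only. SFZ cells, from the superficial zone of articular cartilage at the femur and tibia, were compared with CC, the costal chondrocytes of the ribs. Both came from ICR mice at postnatal day 4 and were grown in DMEM with 10% FBS. The samples differ in body region as well as in the layer of cartilage, and the effects of these cannot be told apart. Each cell type was measured on 1 Affymetrix mouse expression array, from 100 ng of total RNA, and the sources used here do not give how many mice were pooled. No replicate exists, so no test was run, no p-value or error is given, and each difference is one between these 2 arrays.

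All-trans retinoic acid is made from vitamin A. Retinol is oxidized to retinaldehyde by retinol dehydrogenases, and retinaldehyde dehydrogenases of the ALDH1A group then make retinoic acid. CRABP proteins carry it in the cytosol, and CYP26 enzymes oxidize and remove it. In the nucleus it binds the retinoic acid receptors RARα, RARβ and RARγ, which sit on DNA with RXR partners at direct repeats of a short half-site. Retinoic acid patterns the embryonic limb and axis, and in cartilage it restrains chondrogenic differentiation, with RARγ a prominent receptor of growth plate chondrocytes.

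The classic target of this pathway is *Rarb* itself, and its promoter is shown because it carries the type of element that the receptors bind. Half-sites were searched on either strand as AGGTCA, as its variant AGTTCA, as the variant GGGTCA and as the variant GGTTCA. Half-sites of a DR5 are part of it and were counted under both. A DR5 was taken as a pair of half-sites in the same orientation with 5 bases between them, and it is marked in capitals below. The window runs from 250 bases before to 50 bases after the start of the gene in RefSeq (GRCm38.p6, chr14:16575427-16575726, minus strand, written in the direction of transcription).

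Rarb: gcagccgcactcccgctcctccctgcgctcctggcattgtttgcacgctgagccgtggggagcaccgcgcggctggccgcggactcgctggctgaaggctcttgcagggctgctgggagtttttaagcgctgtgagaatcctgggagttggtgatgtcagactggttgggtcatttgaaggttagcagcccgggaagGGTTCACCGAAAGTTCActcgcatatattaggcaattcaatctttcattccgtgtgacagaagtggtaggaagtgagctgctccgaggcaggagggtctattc

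The DR5 of *Rarb* lay 53 to 37 bases before the start. Of 32851 RefSeq promoter windows of 300 bases, 0.0974% held a DR5, 0.268% a DR2 and 0.222% a DR1, the repeats with 2 or 1 bases between the half-sites, whereas 43.7% held at least 1 half-site. None of the other 11 windows of the members held any of these repeats. Windows were found for 7 of the 9 members. Among the other genes of the pathway, *Cyp26a1*, which encodes a retinoic acid hydroxylase, held a DR5 on the strand opposite to the gene, 32 to 16 bases before its start and shown 5′ to 3′ on that strand (chr19:37697558-37697857, plus strand gene, GRCm38.p6).

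Cyp26a1 DR5: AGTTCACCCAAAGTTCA

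Both genes with this element were dark on both arrays. *Rarb* had a signal of 10.5 in SFZ cells against 13.8 in CC, and *Cyp26a1* had 12.7 in SFZ cells against 11.2 in CC. A signal is a MAS5 value, the linear brightness of a probe set as the authors deposited it. Background was set per array from 86 probe sets of sensory receptor genes (smell, taste and pheromone), as the 95th percentile of their signals, at 28.2 for SFZ cells and 26.0 for CC. Signals at or under it are not ordered here. Where only the SFZ signal was under it, the fold is a bound, the CC signal over the SFZ background. Levels of different probe sets are not set against each other, because probes differ in affinity. The RNA is of bulk cells, so fewer cells of a type cannot be told apart from less RNA per cell.

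Of the 9 members, none was higher in SFZ cells while 3 were so in CC, by a rule of size that asked for a signal over 100 on the brighter array and a ratio over 2. The 3 were *Aldh1a2*, *Crabp1* and *Cyp26b1*, one gene each of synthesis, binding and degradation. Of all named genes, 1.37% passed in SFZ cells and 6.17% in CC. Only genes with a signal over 100 could pass. In SFZ cells 2 members had such a signal and neither passed there, beside 3.09% of all named genes with an SFZ signal over 100. In CC 4 members had such a signal and 3 of them passed, beside 12.8% of all named genes with a CC signal over 100. By probe set, none of 12 passed in SFZ cells and 3 passed in CC, beside 0.947% in SFZ cells and 4.33% in CC of all probe sets named with 1 gene. The members and the rule were chosen with earlier results of these data known.

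**Figure D1:**
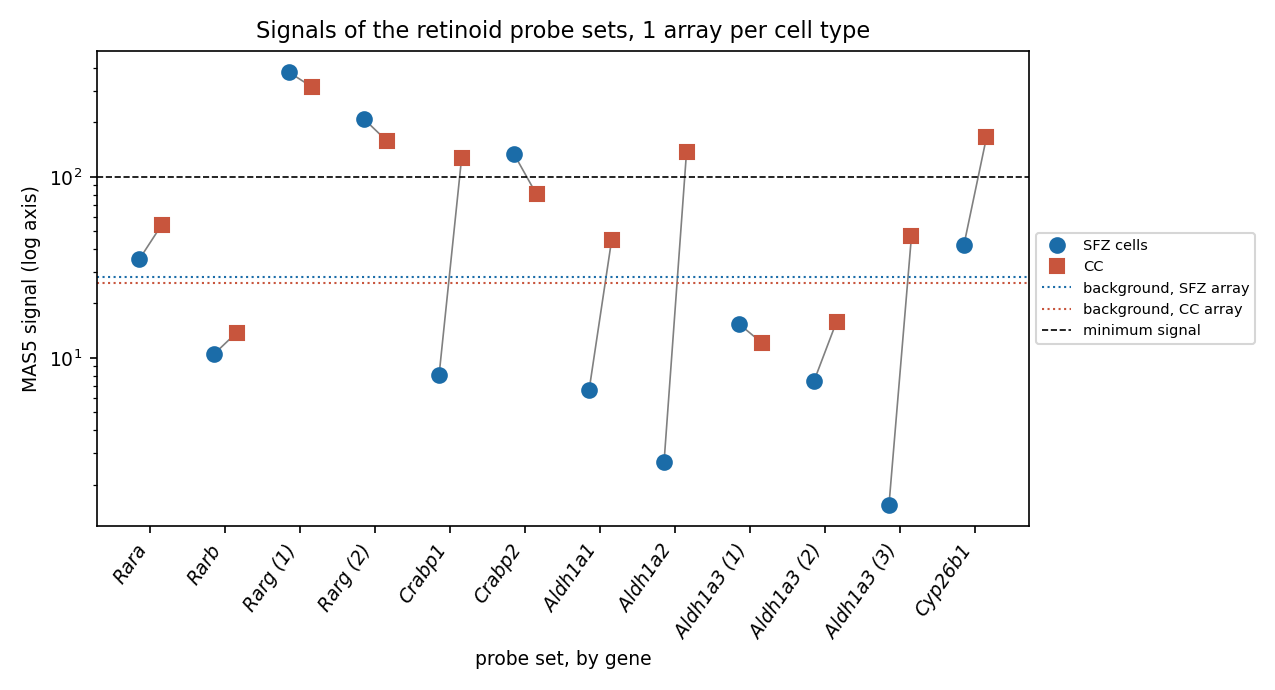
MAS5 signals (log axis) of the 12 retinoid probe sets on the SFZ array (circles) and on the CC array (squares), with 1 array per cell type. Numbers in parentheses count the probe sets of a gene. Background is dotted for each array, at 28.2 and 26.0, and the minimum of 100 is dashed. *Crabp1*, *Aldh1a2* and *Cyp26b1* cross the minimum on the CC array alone.

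Among the synthesis genes, *Aldh1a2* (Entrez gene 19378), which encodes the main retinaldehyde dehydrogenase of the early mouse embryo, had a signal of 2.66 in SFZ cells against 138 in CC. It was thus at least 4.89-fold lower in SFZ cells, where it was under background. *Aldh1a1*, which encodes a related cytosolic enzyme, was at 6.63 in SFZ cells against 44.6 in CC, at least 1.58-fold lower in SFZ cells, and the CC signal was under the minimum of 100. *Aldh1a3*, the third enzyme of the group, was measured by 3 probe sets. They gave 15.4, 7.46 and 1.55 in SFZ cells, against 12.2, 15.8 and 47.3 in CC. Thus 2 of the 3 were under background on both arrays, and the other was at least 1.68-fold lower in SFZ cells. No probe set of the 3 synthesis genes was above background on the SFZ array, whereas each gene had a probe set above background on the CC array. For *Aldh1a3* this rests on 1 of its 3 probe sets, and for *Aldh1a1* and *Aldh1a3* the CC signals were under the minimum of 100. On brightest probe sets, 11308 of all 18193 named genes were above background in SFZ cells and 12064 in CC.

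Of the binding protein genes, *Crabp1* (Entrez gene 12903), which encodes a cytosolic carrier of retinoic acid, had a signal of 8.07 in SFZ cells against 127 in CC, at least 4.51-fold lower in SFZ cells. *Crabp2*, which encodes the protein that hands retinoic acid to the receptors, had 134 in SFZ cells against 80.1 in CC, a ratio of 1.67. It was the member nearest to passing in SFZ cells. After quantile normalization it did pass, with a ratio of 2.06, and after scaling to equal medians the ratio was 1.90. The ratios of the paralogs thus lay on opposite sides of 1, with *Crabp1* past the rule and *Crabp2* short of it as deposited.

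*Cyp26b1* (Entrez gene 232174), which encodes a retinoic acid hydroxylase needed for limb patterning in mice, had a signal of 42.3 in SFZ cells against 165 in CC. Its ratio of 0.256 was measured above background on both arrays. It was the only one of the 3 genes higher in CC for which the ratio is not a bound. Of the 22502 named probe sets above background on at least 1 array, 2.41% had a lower ratio than *Cyp26b1*, with signals raised to background. This share is a minimum, because raising an SFZ signal to background can hide a lower ratio. No such share is given for *Crabp1* and *Aldh1a2*, whose ratios are bounds.

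The receptor genes differed less. *Rarg* (Entrez gene 19411) was above background on both arrays with both of its probe sets, at 378 in SFZ cells against 315 in CC on one and at 209 in SFZ cells against 159 in CC on the other, ratios of 1.20 and 1.32. *Rara* was at 35.0 in SFZ cells against 54.4 in CC, a ratio of 0.644, not far above background on either array. *Rarb* was under background on both, so no ratio is given. Among the members, *Rarg* was thus the only receptor gene with signals over 100, in both cell types. This does not rank the receptor genes by level, because probes differ in affinity. Neither *Rarg* nor *Rara* reached a 2-fold difference.

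**Figure D2:**
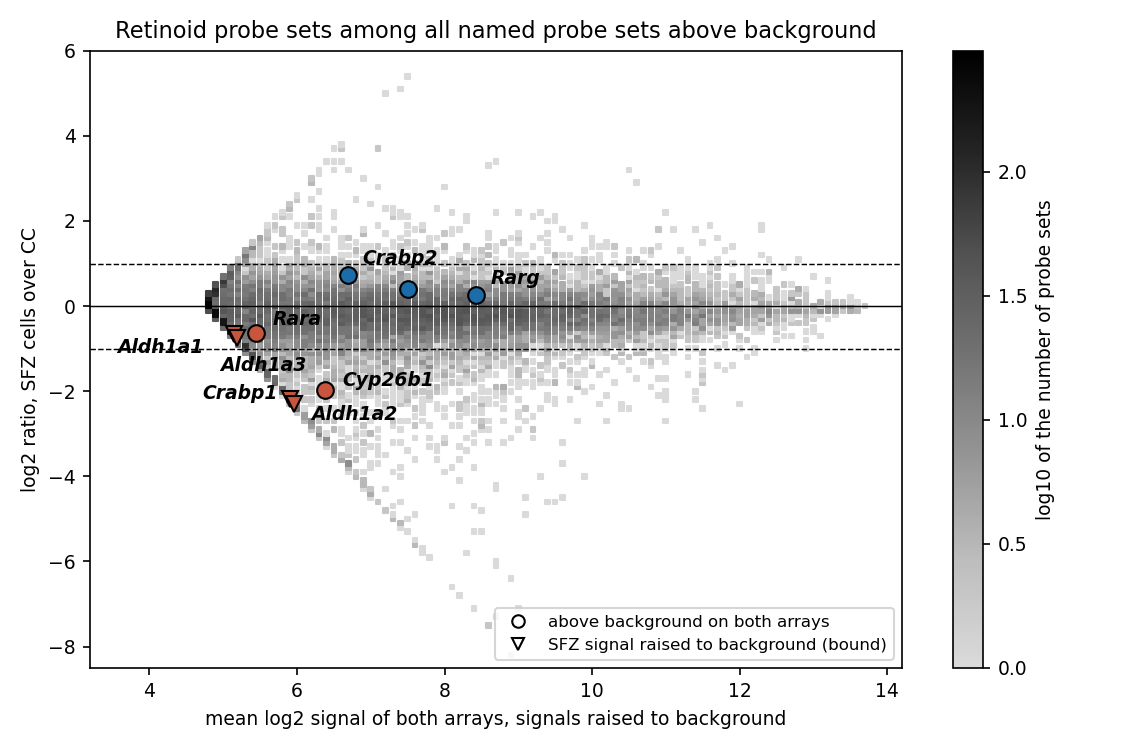
The log2 SFZ to CC ratio (vertical) is plotted against mean log2 signal (horizontal), with signals raised to background, for retinoid probe sets (colored) and for the 22502 named probe sets that passed background on an array (grey). Triangles are bounds, and the rule's ratio of 2 is dashed. *Cyp26b1* lies at -1.97, *Crabp1* at -2.17 or lower and *Aldh1a2* at -2.29 or lower, whereas *Crabp2* lies at 0.74 and *Rarg* at 0.26 and 0.40.

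The promoters of the 3 genes higher in CC are shown to set them beside that of *Rarb*. Capitals mark TATAAA, which is the core of the TATA box, GGGCGG, which is that of the GC box, and CCAAT, which is the CCAAT box, on either strand. The windows are those of RefSeq for *Aldh1a2* (chr9:71215539-71215838, plus strand), *Crabp1* (chr9:54764498-54764797, plus strand) and *Cyp26b1* (chr6:84593761-84594060, minus strand), all in GRCm38.p6 and written in the direction of transcription.

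Aldh1a2: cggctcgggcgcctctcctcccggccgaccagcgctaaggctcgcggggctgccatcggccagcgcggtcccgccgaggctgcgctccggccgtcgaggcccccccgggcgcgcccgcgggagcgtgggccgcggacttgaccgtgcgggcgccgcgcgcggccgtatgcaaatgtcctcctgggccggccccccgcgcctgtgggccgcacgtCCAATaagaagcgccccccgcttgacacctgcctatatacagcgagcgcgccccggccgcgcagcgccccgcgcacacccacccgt

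Crabp1: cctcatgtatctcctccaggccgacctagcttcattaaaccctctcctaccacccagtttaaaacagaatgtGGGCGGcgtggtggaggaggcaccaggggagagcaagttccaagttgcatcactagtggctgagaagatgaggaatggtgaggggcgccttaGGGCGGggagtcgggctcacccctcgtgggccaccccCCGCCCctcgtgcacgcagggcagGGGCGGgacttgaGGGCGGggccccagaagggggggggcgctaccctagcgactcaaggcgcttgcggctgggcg

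Cyp26b1: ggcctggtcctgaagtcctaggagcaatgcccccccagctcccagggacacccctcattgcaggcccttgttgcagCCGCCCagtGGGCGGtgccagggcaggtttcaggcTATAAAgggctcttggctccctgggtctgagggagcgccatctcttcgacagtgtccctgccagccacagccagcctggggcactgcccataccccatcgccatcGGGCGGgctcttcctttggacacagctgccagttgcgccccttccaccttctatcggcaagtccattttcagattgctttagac

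The windows of the 3 genes were unlike each other. That of *Aldh1a2* was 78.0% G and C with 50 CpG dinucleotides, a number reached by 0.855% of all windows, and it held 1 CCAAT and no GGGCGG. That of *Crabp1* held 5 GGGCGG and 17 CpG. That of *Cyp26b1* held 3 GGGCGG, 9 CpG and a TATAAA 139 to 134 bases before the start. GGGCGG was found in 35.7% of all windows, CCAAT in 37.4% and TATAAA in 13.6%, and the median window held 7 CpG. None of the 3 windows held a half-site. A match of letters is a description and not a binding site, and it says nothing of elements outside these windows.

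For 7 members the brightest probe set passed background on an array. Their median log2 ratio (SFZ over CC) was -0.66 with signals raised to background. This value is that of *Aldh1a1* and so an upper bound. The same median was -0.18 over 12477 named genes. Of the 7, *Aldh1a1*, *Aldh1a2* and *Crabp1* entered through the CC array alone, where they were the higher, and nothing is read from the median. *Rarb* and *Aldh1a3* are not in it, because their brightest probe sets were under background. As deposited, without raising signals, the median of the 7 was -1.97, the value of *Cyp26b1*, since *Aldh1a1* then lay at -2.75.

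The direction of the ratios did not depend on the scaling of the arrays for the 9 member probe sets above background. The median log2 ratio over all probe sets that passed background on each array was -0.15 as deposited. It became 0.03 with equal medians and 0.08 with quantile normalization. With 64 added to both signals, which damps low values, the log2 ratio was -1.13 for *Aldh1a2*, -1.05 for *Crabp1* and -1.11 for *Cyp26b1*. The 3 genes passed in CC under each of these scalings. With a minimum signal of 200 none of them passed, since their CC signals lay between 127 and 165.

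**Figure D3:**
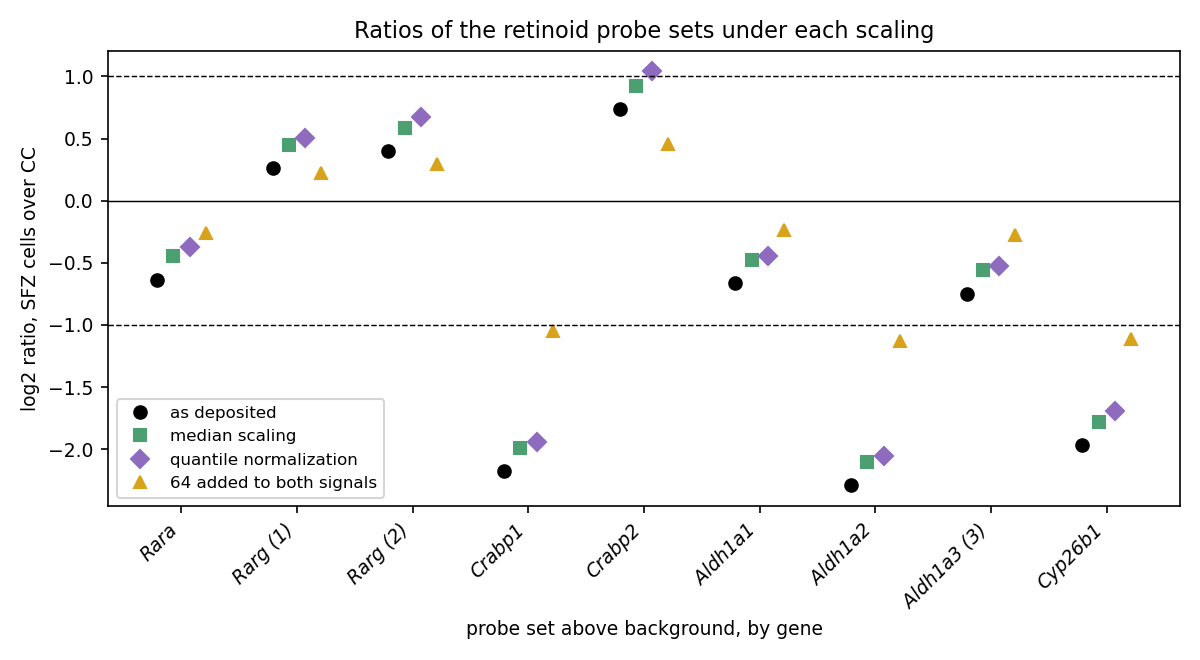
The log2 SFZ to CC ratio (vertical) of the 9 retinoid probe sets that passed background on an array (horizontal), as deposited and under 3 other scalings, with signals raised to background and the rule's ratio dashed. *Crabp2* crosses the line after quantile normalization at 1.04, and *Crabp1*, *Aldh1a2* and *Cyp26b1* stay under -1 in each setting.

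Other genes of the pathway were drawn from lists by role, of which 55 genes were named on the array and 41 were above background. Of the 55, none was higher in SFZ cells as deposited and 8 were higher in CC, which is 14.5%, beside 1.37% in SFZ cells and 6.17% in CC of all named genes. Their median log2 ratio was -0.44 over the 41, beside -0.18 over the 12477 named genes, and it includes genes that entered through 1 array alone. The lists were chosen with earlier results of these data known, and nothing is read from these shares or medians. In retinol supply, *Rbp4*, which encodes the retinol carrier of plasma, was at 1197 in SFZ cells against 1720 in CC, a ratio of 0.696. *Scarb1*, a scavenger receptor that takes up carotenoids, was at 242 in SFZ cells against 460 in CC, and *Dgat1*, an acyltransferase that can esterify retinol, was at 153 in SFZ cells against 289 in CC, and neither passed. *Stra6*, the cell surface receptor for RBP4, and *Lrat*, the main retinol esterifying enzyme, were under background on both arrays.

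Ratios of the enzymes of the first oxidation step lay on both sides of 1. *Rdh10*, the retinol dehydrogenase that supplies retinaldehyde in the mouse embryo, was at 275 in SFZ cells against 352 in CC on one probe set and at 170 in SFZ cells against 93.6 in CC on the other, so its probe sets disagreed in direction. The second gave a ratio of 1.82 as deposited and 2.24 after quantile normalization. *Dhrs3*, which reduces retinaldehyde back to retinol, was at 766 in SFZ cells against 551 in CC, a ratio of 1.39. *Adh5*, an alcohol dehydrogenase with a broad role in formaldehyde removal, was at 2464 in SFZ cells against 2175 in CC. *Adh1*, an alcohol dehydrogenase that oxidizes retinol, was at 25.1 in SFZ cells against 154 in CC, at least 5.45-fold lower in SFZ cells. It was the 1 gene of 14 in its list to pass, in CC, beside 6.17% of all named genes. *Adh7*, a further alcohol dehydrogenase that oxidizes retinol, was at 94.1 in SFZ cells against 42.4 in CC on one probe set and 84.4 in SFZ cells against 48.8 in CC on the other, under the minimum of 100.

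None of the 3 genes of the RXR partners passed, beside 1.37% of all named genes in SFZ cells and 6.17% in CC. *Rxra* had ratios of 1.26 and 0.752 on its 2 probe sets above background, and *Rxrb* was at 273 in SFZ cells against 222 in CC, a ratio of 1.23. Of 10 coregulator genes, 1 was higher in CC, beside 6.17% of all named genes. All 10 had a CC signal over 100, and of all named genes with such a signal 12.8% passed. The 1 gene was *Nrip1*, a corepressor of nuclear receptors, at 152 in SFZ cells against 329 in CC on the probe set that passed. Its brightest probe set had 224 in SFZ cells against 443 in CC, a ratio of 0.506. *Nrip1* no longer passed with equal medians, with quantile normalization, with 64 added to both signals or at a ratio over 3. The coactivator gene *Ncoa3* was at 233 in SFZ cells against 164 in CC, and the coactivator genes *Crebbp* and *Ep300* had ratios of 0.980 and 0.926 on their brightest probe sets. *Tbl1x*, which encodes a subunit of corepressor complexes, was at 1921 in SFZ cells against 1902 in CC.

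*Fabp5* encodes a fatty acid binding protein that can pass retinoic acid to the receptor PPARδ. Its signals were 1277 in SFZ cells against 6619 in CC on one probe set, and 469 in SFZ cells against 2973 in CC on the other, ratios of 0.193 and 0.158. *Ppard*, the gene of that receptor, was at 55.6 in SFZ cells against 87.4 in CC. *Fabp5* was thus higher in CC on both of its probe sets, and *Ppard* did not pass.

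**Figure D4:**
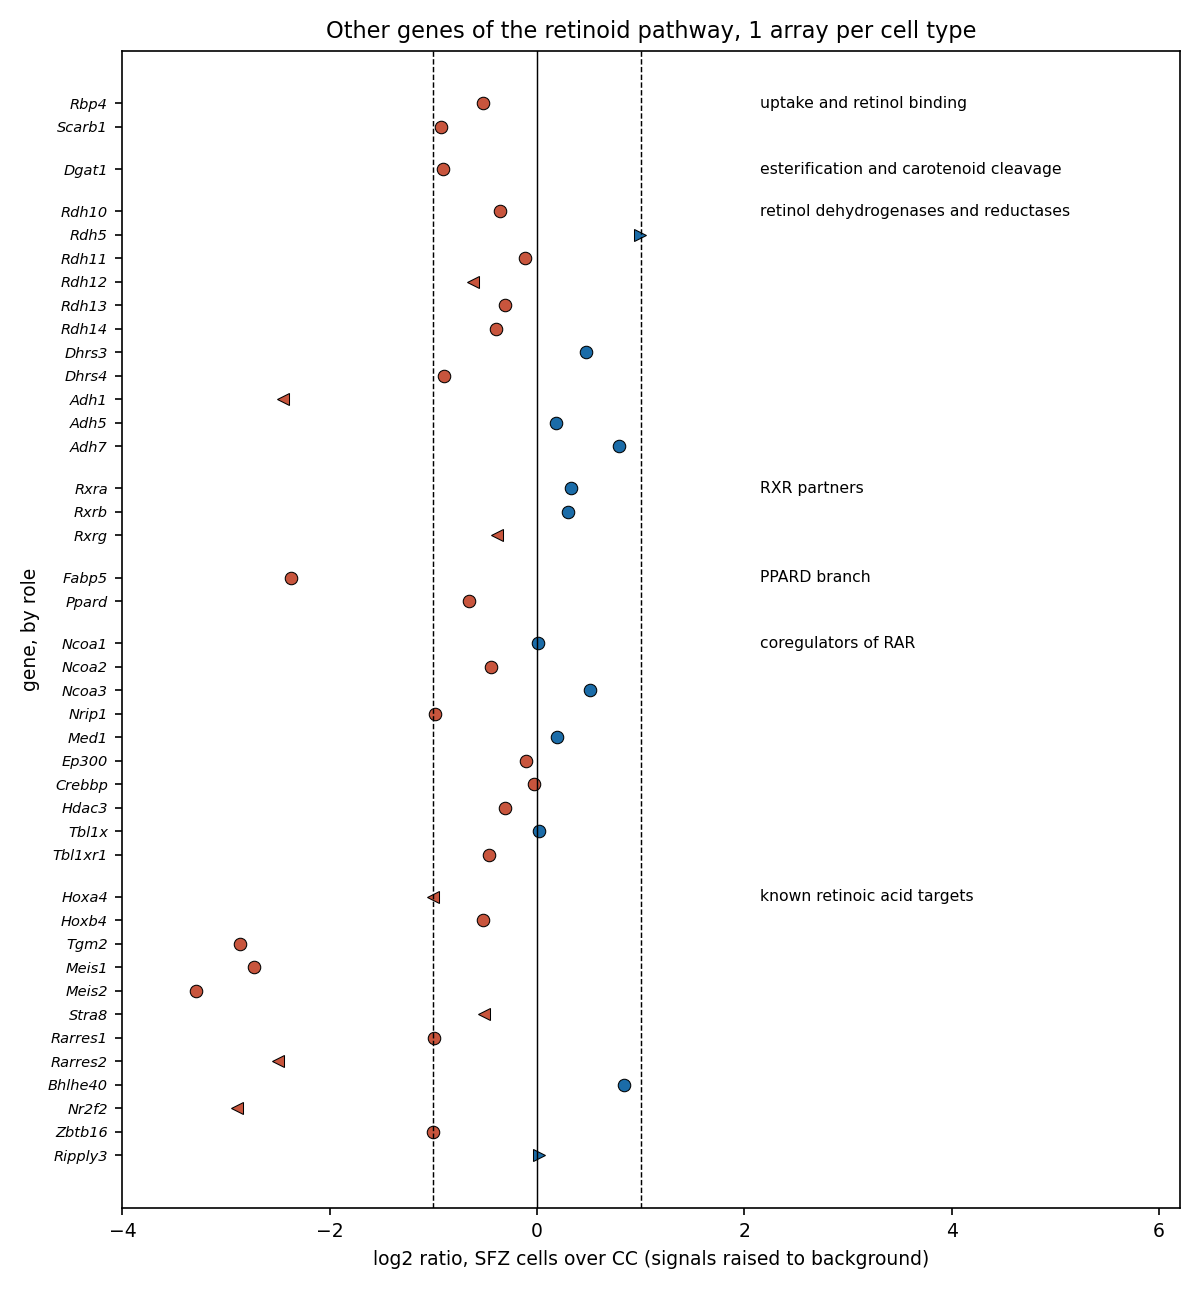
The log2 SFZ to CC ratio (horizontal) of the other pathway genes by role (vertical), for brightest probe sets that passed background on an array, signals raised to background. Triangles are bounds, and the rule's ratio of 2 is dashed. The values farthest toward CC belong to *Meis2* at -3.29, *Tgm2* at -2.87 and *Meis1* at -2.73, and *Nr2f2* at -2.89 is a bound.

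Of 15 genes known as targets of retinoic acid in other cells, no gene passed in SFZ cells and 5 passed in CC. The latter is 33.3%, beside 6.17% of all named genes. A CC signal over 100 was found for 7 of the 15, and 5 of these passed, beside 12.8% of all named genes with such a signal. The list was chosen with earlier results of these data known, so nothing is read from these shares. *Tgm2*, which encodes tissue transglutaminase, was at 141 in SFZ cells against 1029 in CC on its brightest probe set, a ratio of 0.137, and 5 of its 6 probe sets passed. *Meis2*, a TALE homeobox gene, was at 68.9 in SFZ cells against 675.5 in CC. *Meis1* was at 332 in CC on its brightest probe set, with a ratio of 0.151, and its other probe sets did not pass. *Nr2f2*, an orphan nuclear receptor gene, was at 18.8 in SFZ cells against 209 in CC on its brightest probe set, at least 7.42-fold lower in SFZ cells. The other probe sets of *Nr2f2* did not pass, with CC signals of 48.2 or lower. *Rarres2*, which encodes the adipokine chemerin, was at 14.1 in SFZ cells against 159 in CC, at least 5.66-fold lower in SFZ cells. Both of its probe sets that passed are of the _s_at type, which can match several transcripts, and *Rarres2* did not pass without them, with the other probe set under background on both arrays. *Bhlhe40*, which encodes a repressor of the bHLH class, was at 654 in SFZ cells against 365 in CC, a ratio of 1.79, which became 2.04 with equal medians and 2.10 with quantile normalization. *Rarres1* was at 100.1 in SFZ cells against 199 in CC and just missed a ratio of 0.5. The Hox genes of the list were dim, with *Hoxa4* at 9.68 in SFZ cells against 56.5 in CC and *Hoxb4* at 38.9 in SFZ cells against 56.0 in CC. Many of these genes also respond to other signals, and *Meis* and *Hox* genes also mark position along the body.

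Markers of other cell types were read on the same arrays. All 10 skeletal muscle genes were higher in CC, with a summed signal of 238 in SFZ cells against 29614 in CC, as were all 5 adipocyte genes measured, with 1012 in SFZ cells against 11484 in CC. The brightest were *Actc1* at 28.7 in SFZ cells against 8228 in CC, *Mylpf* at 28.6 in SFZ cells against 5161 in CC, *Fabp4* at 42.7 in SFZ cells against 6039 in CC and *Lpl* at 942 in SFZ cells against 4009 in CC. On the SFZ array 4 of the 10 muscle genes and 2 of the 5 adipocyte genes were above background, against all of them on the CC array. Where a list has genes under background on an array, its sum includes their signals. Of 10 fibroblast and perichondrial genes 7 were higher in CC, including the surface markers *Thy1* at 46.3 in SFZ cells against 366 in CC and *Pdgfra* at 91.0 in SFZ cells against 911 in CC, and the summed signal was 17215 in SFZ cells against 28647 in CC. All 10 of these genes were above background on both arrays, with the decorin gene *Dcn* at 5649 in SFZ cells against 5289 in CC. The collagen gene *Col3a1* was at 6421 in SFZ cells against 8516 in CC on its brightest probe set, which did not pass. *Col3a1* counted as higher in CC through its other probe set, at 374 in SFZ cells against 1346 in CC. Of 8 macrophage and leukocyte genes 4 were above background in SFZ cells against 8 in CC, with a summed signal of 432 in SFZ cells against 1986 in CC. The 3 that passed in CC included *Lyz2* at 232 in SFZ cells against 1432 in CC. They also included *Csf1r* at 55.6 in SFZ cells against 127 in CC on its brightest probe set. The other probe sets of *Csf1r* did not pass, with ratios of 0.771 and 0.776. Mesothelial cells, which line the chest wall, gave 1 gene of 7, *Msln*, at 38.3 in SFZ cells against 103 in CC, with 4 of 7 above background in SFZ cells against 6 of 7 in CC and a summed signal of 207 in SFZ cells against 409 in CC. *Lrrn4* was at 3.22 in SFZ cells against 79.4 in CC, *Wt1* was under background in SFZ cells and at 67.9 in CC, and the keratin gene *Krt19* was at 63.9 in SFZ cells against 15.8 in CC. The part of these cells in the ratios of *Aldh1a2*, *Crabp1*, *Cyp26b1* and the other pathway genes was not tested.

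Endothelial, keratinocyte and Schwann cell lists had no gene past the rule, beside 1.37% of all named genes in SFZ cells and 6.17% in CC. None of 6 endothelial genes was above background in SFZ cells and 5 were in CC. Of 5 keratinocyte genes 1 was above background in SFZ cells and 2 were in CC, and of 3 Schwann cell genes none was in SFZ cells and 1 was in CC. Cartilage genes were bright in both cell types, *Col9a1* and *Comp* among them, with 10 of 10 above background on each array and 3 higher in SFZ cells, *Matn1*, *Col9a3* and *Snorc*. Of 10 joint surface genes *Prg4*, which encodes lubricin, was higher in SFZ cells at 323 against 73.6 in CC, and *Vcam1*, *Clu* and *Thbs4* were higher in CC. The brightest probe set of *Clu* did not pass, at 408 in SFZ cells against 749 in CC. *Abi3bp*, the brightest gene of the list, was at 1326 in SFZ cells against 1296 in CC. Of 6 tendon genes, *Tnmd* and *Thbs4* were higher in CC, and *Fmod* was at 7011 in SFZ cells against 6052 in CC.

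**Figure D5:**
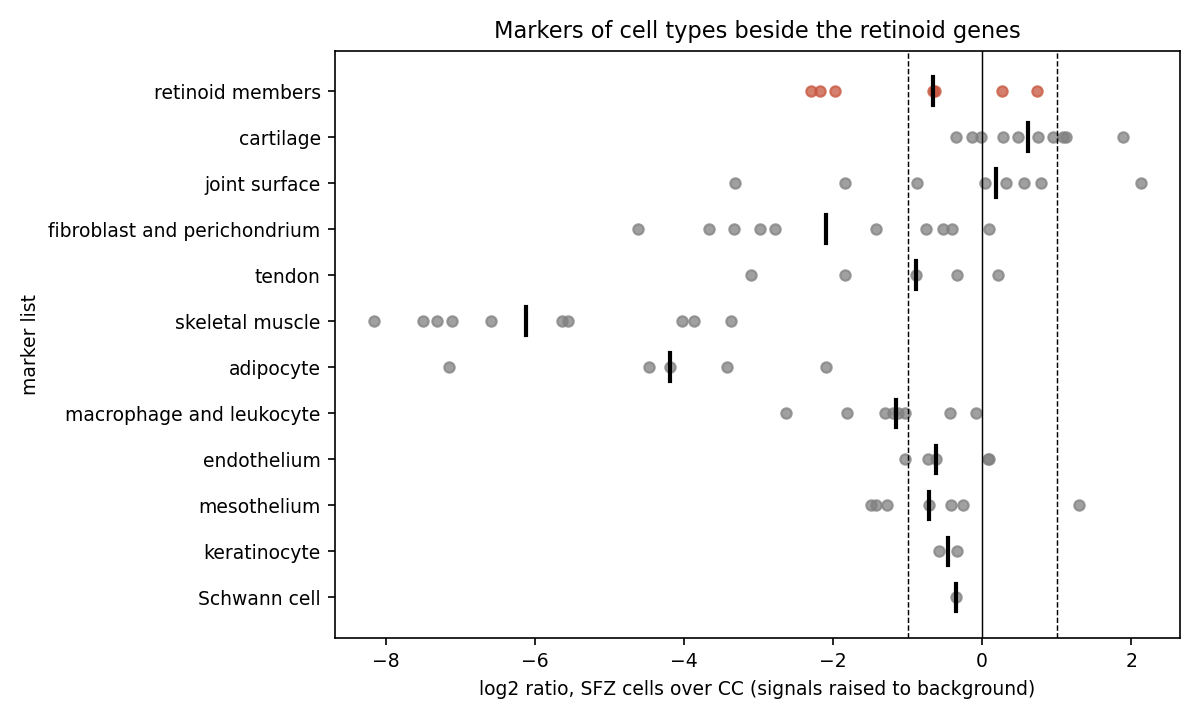
The log2 SFZ to CC ratio (horizontal) of the retinoid genes and of marker genes in 11 lists (vertical), for brightest probe sets that passed background on an array, signals raised to background. Points are genes. Bars are medians, -0.66 for the retinoid genes, -6.12 for skeletal muscle, -4.18 for adipocytes, -2.10 for fibroblasts and perichondrium, -0.71 for mesothelium and 0.61 for cartilage. Values at background on 1 array are bounds.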

How the data were processed

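Total RNA of cultured SFZ cells and CC was labelled with a GeneChip 3′ IVT kit and hybridized to 1 array each. The authors deposited MAS5 signals, linear intensities per probe set, which were used as given. The sources used here give neither the MAS5 version nor its scaling target. After 64 control probe sets were left out, 45037 remained, of which 34945 had 1 gene symbol in the platform annotation, 932 had several and 9160 were unnamed here. All 9 members matched RefSeq through Entrez identifiers.

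A gene passed where any probe set did, and the probe set of highest mean log2 signal stood for it in medians. The members, the lists and the rules were chosen with earlier results of these data known. Named were all members, pathway genes that passed, and the brightest 2 of each list except *Bco1*, which was under background on both arrays. *Rdh5* and *Zbtb16* are named as genes that passed at a minimum signal of 50. Further genes were picked after their values were seen (*Stra6*, *Lrat*, *Rdh10*, *Adh7*, *Bhlhe40*, *Rarres1*, *Hoxa4*, *Hoxb4*, *Ncoa3*, *Ep300* and the markers named beyond the brightest). The brightest genes of the endothelial, keratinocyte and Schwann cell lists, near background, were left unnamed. Alternatives were 2 scalings, 64 added to both signals, other thresholds and background percentiles, and other rules for probe sets. Precision is limited by the number of arrays. Promoter sequences are from RefSeq, GRCm38.p6. Python 3.11.15, numpy 2.4.6, pandas 2.3.3 and matplotlib 3.10.9 were used.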

Additional observations from a re-analysis of the deposited data

How the results depend on the processing

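A count is called close where it is within 1.5 times the value as deposited, and a median or log2 ratio where it moved by less than a 1.5-fold change. The count of members and of probe sets higher in SFZ cells, 0 as deposited, was 1 under quantile normalization and at a ratio over 1.5, *Crabp2* in both cases. The count of members higher in CC was 3 under median scaling, quantile normalization and 64 added to both signals. It was 3 as well at ratios over 1.5 and 3 and at a minimum signal of 50. Without _s_at and _x_at probe sets, and when all probe sets of a gene were asked to pass, it was also 3. These last 2 settings could not alter it, as the 3 genes have 1 probe set each, neither _s_at nor _x_at. The count was 0, also by probe set, at a minimum signal of 200. The other pathway genes higher in SFZ cells, 0 as deposited, were 2 under median scaling (*Bhlhe40* and *Rdh10*), 3 under quantile normalization (these and *Adh7*), 2 at a ratio over 1.5 (*Bhlhe40* and *Rdh10*) and 2 at a minimum signal of 50 (*Rdh5* and *Adh7*). Those higher in CC, 8 as deposited, were 13 at a ratio over 1.5. When all probe sets were asked to pass they were 2, *Fabp5* and *Adh1*, which has 1 probe set only. They were 7 under median scaling, quantile normalization, 64 added and a ratio over 3, each without *Nrip1*, 7 without _s_at and _x_at probe sets (*Rarres2* lost), 6 at a minimum signal of 200 (*Adh1* and *Rarres2* lost) and 10 at 50 (*Hoxa4* and *Zbtb16* gained). The median log2 ratio of the members was -1.97 without raising signals to background. Stricter or looser rules alter counts by their construction. The cause of the changes under scaling was not tested. The 7 members with a ratio kept their direction under both scalings. Adding 64 to both signals cannot reverse a direction, and leaving signals unraised could not for these members. The median over probe sets could differ only for *Rarg*, which alone of the 7 has several probe sets, and there the direction was kept. Without replicates no interval can be given, and signals near background limit *Rara*, *Aldh1a1* and *Aldh1a3*. For members, ratios with signals not raised to background were added after seeing the data.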

Other observations

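The DR5 search was run over all promoter windows, and it was chosen after the arrays had been seen. It found 32 windows of 31 genes, of which 11 were named on the array and 2 were above background on their brightest probe set. Of all 18193 named genes, 12477 were above background on theirs. *Ppbp*, which encodes a platelet chemokine, was at 4.43 in SFZ cells against 130 in CC. It was the 1 gene of the 11 that passed in CC, beside 6.17% of all named genes. *Blvrb*, which encodes a biliverdin reductase, was at 116 in SFZ cells against 184 in CC, a ratio of 0.629. The other 9, *Rarb* and *Cyp26a1* among them, were under background on both arrays. None of the 11 was higher in SFZ cells, beside 1.37% of all named genes. Nothing is read from these counts.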
